A study of Mus musculus with 23 samples.

Results

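The cyclin, cyclin-dependent kinase (CDK), E2F, MCM and CDC genes were examined in mouse striatum with and without Ezh1 and Ezh2. A probe set belonged to them when it carried 1 gene symbol and that symbol began with Ccn followed by a, b, d, e or g and a digit, or with Cdk, E2f, Mcm or Cdc and a digit. This rule took 207 probe sets of 87 genes, out of 38143 probe sets of 20750 genes with 1 symbol each, and it used no measured value. It also took Cdc42, its effectors and Cdk5, which carry such names but are not known mainly for cell division. A further 8 probe sets named several genes and were left out, among them all 3 of Cdk4 and 4 of Ccnb1.

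The arrays measured total RNA of dissected striatum, labelled only as striatal tissue, in 6 groups. Wild-type (WT) mice gave 3 arrays at 6 weeks, 4 at 3 months and 4 at 6 months. Mice without both Ezh1 and Ezh2 (dKO) gave 3 arrays at 6 weeks, 3 at 3 months and 6 at 6 months, and their label names a Camk Cre, without saying which Camk promoter it was or which part of each gene was deleted. The WT mice were littermates of the dKO mice, with age and sex matched, and replicates were described as biological. The sources used here give neither the strain nor whether animals were pooled. Each value is a log2 signal centred separately for each probe set, so values compare arrays and never one gene with another, and neither the level of a gene nor the presence of a striatal marker can be read from them. In a tissue, fewer cells of a type and less RNA per cell cannot be told apart. The number of arrays limits the precision of every difference.

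D-type cyclins bind CDK4 and CDK6 and open the cell cycle by phosphorylating the retinoblastoma protein, which releases E2F factors. E2F factors switch on the genes for DNA replication, among them the MCM helicase that unwinds DNA at origins, while cyclins A and B with CDK1 and CDK2 drive replication and mitosis. Cdkn2a encodes p16INK4a, which blocks CDK4 and CDK6, and p19ARF, which stabilises p53; Polycomb repressive complex 2, whose catalytic subunit is EZH1 or EZH2, is known to silence this locus. Neurons of the adult striatum do not divide, whereas glial precursors and the progenitors of the neighbouring subventricular zone do. The comparison asked whether the rise of Cdkn2a in the dKO came with changes of cell-cycle genes.

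The upstream promoters of Ccnb2, Cdk1, Mcm5 and Mcm6 are shown because these genes changed with age or genotype in the results that follow, Mcm5 and Mcm6 in opposite directions with genotype. Each line holds the 250 bases before the gene's start from RefSeq (mouse build GRCm38.p6), written 5′ to 3′ on the gene's strand. Capitals mark the E2F motif TTTGGCGC, the cell cycle genes homology region (CHR) motif TTTGAA and the CCAAT box, each on either strand.
Ccnb2: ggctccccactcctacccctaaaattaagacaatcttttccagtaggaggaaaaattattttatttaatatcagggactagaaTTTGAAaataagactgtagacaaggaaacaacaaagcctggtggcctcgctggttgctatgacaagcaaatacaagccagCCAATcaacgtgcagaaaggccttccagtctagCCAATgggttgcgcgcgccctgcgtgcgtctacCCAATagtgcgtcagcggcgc
Cdk1: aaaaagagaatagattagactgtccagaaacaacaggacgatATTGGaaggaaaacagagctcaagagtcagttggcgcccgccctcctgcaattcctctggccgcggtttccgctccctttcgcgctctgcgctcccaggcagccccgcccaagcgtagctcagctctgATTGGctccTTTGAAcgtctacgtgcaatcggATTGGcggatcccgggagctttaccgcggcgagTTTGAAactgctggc
Mcm5: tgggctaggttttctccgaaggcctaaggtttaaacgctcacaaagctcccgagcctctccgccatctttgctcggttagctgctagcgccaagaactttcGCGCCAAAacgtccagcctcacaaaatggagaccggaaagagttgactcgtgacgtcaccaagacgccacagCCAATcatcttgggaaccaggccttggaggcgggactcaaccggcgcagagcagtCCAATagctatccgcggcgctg
Mcm6: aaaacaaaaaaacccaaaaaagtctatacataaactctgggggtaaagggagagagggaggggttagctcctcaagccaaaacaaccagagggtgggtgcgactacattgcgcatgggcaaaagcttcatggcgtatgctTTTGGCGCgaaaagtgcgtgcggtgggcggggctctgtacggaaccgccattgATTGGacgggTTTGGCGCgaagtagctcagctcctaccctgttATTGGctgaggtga

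The Ccnb2 stretch lies at chr9:70421555-70421804 on the minus strand and holds 1 TTTGAA and 3 CCAAT boxes. The Cdk1 stretch at chr10:69352913-69353162, also on the minus strand, holds TTTGAA with its first base at positions -71 and -15, counting the base before the start as -1. The Mcm5 stretch, chr8:75109259-75109508 on the plus strand, has TTTGGCGC on the opposite strand at -149. The Mcm6 stretch, chr1:128359706-128359955 on the minus strand, has it at -110 and -47. A motif match is a description of these letters, not evidence of binding.

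Of 32851 promoters of the same length, 137 (0.417%) held TTTGGCGC, 294 (0.895%) held the other E2F form searched, TTTCCCGC, 5252 (16%) held TTTGAA and 11120 (33.8%) held CCAAT, with overlapping matches all counted. Promoters were found for 72 of the 87 genes. Those 72 genes had 85 promoters, of which 3 held TTTGGCGC, 5 TTTCCCGC, 17 TTTGAA and 42 CCAAT. Counted by gene, these were 3, 5, 16 and 39 of the 72.

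Ezh1, the deleted gene used to check the labels, stood at 2.28, 2.28 and 2.07 in WT at 6 weeks on probe set 1449023_a_at. The dKO arrays of that age stood at -0.37, -0.62 and 1.47. The library labelled dKO replicate 3 at 6 weeks lay closer to the WT mean than to that of the other dKO arrays on 3 of the 4 Ezh1 probe sets, and closer to the dKO arrays on 1429630_at, where it read 0.13 against -0.39 and -0.33 in dKO and 0.89 to 1.84 in WT. On all 4 it lay below every WT array and above both other dKO arrays. Its Cdkn2a, at -1.38, lay beside the WT arrays at -1.91 to -1.47. Tests that use the dKO arrays of 6 weeks are given with and without it. At 3 and 6 months the log2 fold change of Ezh1 was -2.0 ± 0.32 and -2.10 ± 0.27 (SE), with every dKO array below every WT array. The single Ezh2 probe set differed by -0.40 at 6 weeks, -0.45 at 3 months and -0.43 at 6 months, none past the threshold, so it gives no separate check of the Ezh2 deletion.

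At 6 weeks none of the 207 probe sets passed an adjusted p of 0.05 (limma, Benjamini-Hochberg over all 38143), against 0.202% of all probe sets. At an unadjusted limma p under 0.05 there were 8 higher and 14 lower of the 207, beside 1580 higher and 1723 lower of all 38143. Without the library labelled dKO replicate 3, 2 were higher and none lower, against a background of 0.194% higher and 0.0551% lower (0.249% in all), and both belonged to Ccnd1. At 3 months 2 were higher and none lower, against 0.239% higher and 0.0236% lower among all probe sets (0.262% in all), and both were again Ccnd1. The median log2 fold change of the 207 was -0.02 at both ages, beside -0.01 and 0.00 for all probe sets.

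At 6 months 31 of the 207 (15%) passed, 12 higher and 19 lower, in 22 genes. The background was 15.7% of all probe sets, 7.62% higher and 8.07% lower, so the share among cell-cycle names lay near that of the array as a whole. The median log2 fold change was -0.03 for the 207 and 0.00 for all probe sets. Of the 22 genes, 17 had more than 1 probe set, and only 4 of these, Ccnd1, Ccng2, Cdc42ep3 and Cdk19, had every probe set called the same way. For Cdc23 and Cdc73 the probe sets were called in opposite directions.

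**Figure D1:**
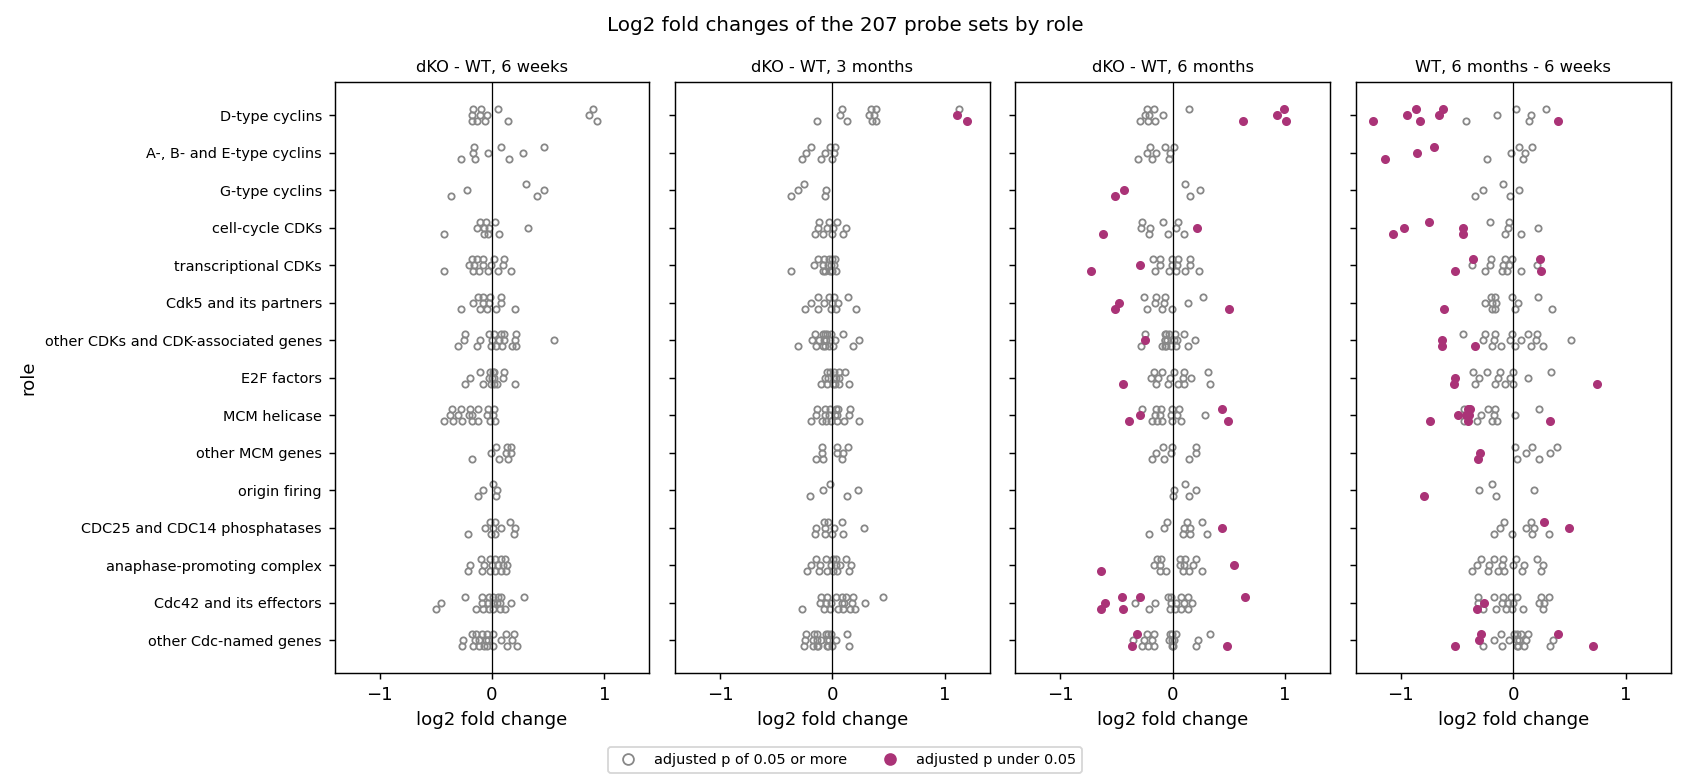
Log2 fold changes of the 207 probe sets (x axis) by the role of their gene (y axis) in dKO against WT at each age and in WT at 6 months against 6 weeks; each point is 1 probe set, filled where its limma adjusted p is under 0.05. Filled points at 3 months are the 2 Ccnd1 probe sets, the 31 at 6 months lie on both sides of 0, and 37 of the 46 in WT with age lie below 0.

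Cyclin D1 (Ccnd1), the D-type cyclin induced by growth signals, was the one gene of the 87 that passed as higher in dKO at both 3 and 6 months. On probe set 1448698_at the WT arrays at 3 months read -0.48, -0.01, -0.31 and -0.09, and the dKO arrays 0.92, 0.95 and 0.78. At 6 months the WT arrays read -0.37, -0.31, -0.46 and -0.52, and the 6 dKO arrays ran from 0.14 through a median of 0.61 to 1.11. The groups did not overlap at either age.

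The log2 fold change of this probe set was 1.11 ± 0.19 at 3 months (2.16-fold, limma adjusted p = 0.00831) and 1.01 ± 0.16 at 6 months (2.01-fold, limma adjusted p = 2.58e-04). A second probe set, 1417420_at, gave 1.19 ± 0.18 (limma adjusted p = 0.00242) and 0.93 ± 0.16 (limma adjusted p = 3.43e-04). The third, 1417419_at, gave 1.13 ± 0.32 at 3 months, where it missed the threshold (limma adjusted p = 0.224), and 0.99 ± 0.27 at 6 months (limma adjusted p = 0.0142). All 3 Ccnd1 probe sets thus rose at 6 months and 2 of them at 3 months. The 3-month call of 1448698_at was lost without dKO replicate 1 or dKO replicate 2 of that age.

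At 6 weeks 1448698_at read -0.39, -0.56 and -0.37 in WT and 0.89, 0.69 and -0.09 in dKO. The third dKO value is that of the library labelled dKO replicate 3, whose Ezh1 lay between the groups, and all 3 dKO arrays still lay above WT. The log2 fold changes of the 3 probe sets were 0.94 ± 0.21, 0.86 ± 0.20 and 0.90 ± 0.34, with limma adjusted p from 0.0646 to 0.374. Without that library, 1448698_at stood at 1.23 ± 0.19 (2.35-fold, limma adjusted p = 0.00367) and 1417420_at at 1.13 ± 0.18 (2.19-fold, limma adjusted p = 0.00517), whereas 1417419_at at 1.19 ± 0.36 missed the threshold (limma adjusted p = 0.293).

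The dKO effect on Ccnd1 did not pass the test of a difference between ages on any of its probe sets. For 1448698_at the effect at 6 months minus that at 6 weeks was 0.07 ± 0.26 (limma adjusted p = 0.947), or -0.22 ± 0.23 without the library labelled dKO replicate 3 (limma adjusted p = 0.788). At 6 months minus 3 months it was -0.10 ± 0.25 (limma adjusted p = 0.903). In WT the gene did not pass between 6 weeks and 6 months either, at 0.03 ± 0.19 (limma adjusted p = 0.94).

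Cdkn2a on the same arrays read -1.91, -1.58 and -1.47 in WT and 0.96, 0.46 and -1.38 in dKO at 6 weeks. At 3 months WT read -1.18, -0.88, -1.50 and -1.09, and dKO 1.02, 1.30 and 1.14. At 6 months WT read -1.19, -0.72, -1.42 and -1.38, and the dKO arrays ran from 2.42 through a median of 2.68 to 2.94. The dKO arrays lay well above WT at both later ages, and at 6 weeks the library labelled dKO replicate 3 was only just above the highest WT array.

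The log2 fold change of Cdkn2a was 1.66 ± 0.35 at 6 weeks (limma adjusted p = 0.0471, a call lost in 26 of 34 alternatives), 2.31 ± 0.32 at 3 months (limma adjusted p = 8.27e-04) and 3.87 ± 0.27 at 6 months (14.6-fold, limma adjusted p = 1.77e-09). Without the library labelled dKO replicate 3, the 6-week value was 2.36 ± 0.20 (5.13-fold, limma adjusted p = 1.38e-06). This left only dKO replicates 1 and 2 at that age. The library was noted partly for its own low Cdkn2a, so values of this gene without it are no independent support. The Cdkn2a effect was larger at 6 months than at 6 weeks by 2.20 ± 0.44 (limma adjusted p = 0.0153), and by 1.51 ± 0.25 without that library (limma adjusted p = 0.00321). With all arrays this call was lost in 5 of 34 alternatives, among them leaving out WT replicate 2 or 3 at 6 weeks. Whether Cdkn2a and Ccnd1 differ in this respect was not tested. Among the dKO arrays at 6 months, replicate 4 had the highest Cdkn2a, 2.94, and the lowest Ccnd1, 0.14 on 1448698_at. On replicates 1, 2, 3, 5 and 6 Cdkn2a read 2.72, 2.81, 2.60, 2.65 and 2.42, and Ccnd1 1.11, 0.69, 0.35, 0.54 and 0.73. A relation between the 2 genes across these arrays was not tested.

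**Figure D2:**
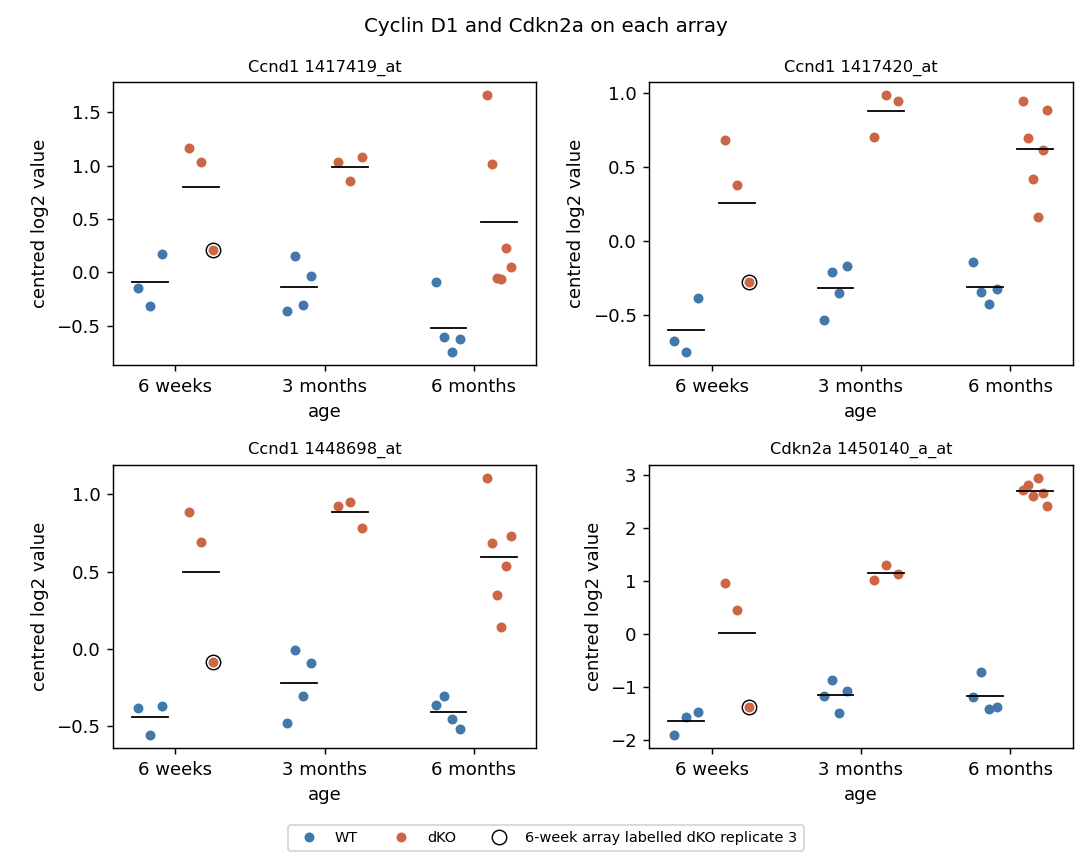
Centred log2 values (y axis) of the 3 Ccnd1 probe sets and of Cdkn2a on each array by age (x axis); WT in blue, dKO in orange, the bar is the group mean and the ring marks the library labelled dKO replicate 3 at 6 weeks. Ccnd1 on 1448698_at is higher in dKO at each age by 0.94 to 1.11 on the log2 scale, while the Cdkn2a difference runs from 1.66 at 6 weeks to 3.87 at 6 months.

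Cyclin D2 (Ccnd2), the D-type cyclin of many neural progenitors, passed on none of its 7 probe sets in dKO against WT at any age, with log2 fold changes from -0.29 to -0.15 at 6 months. Cyclin D3 (Ccnd3) was higher at 6 months on 1 of 3 probe sets. That probe set, 1438805_at, read 0.07, 0.08, 0.00 and -0.42 in WT and 0.10 to 0.96, median 0.58, in dKO, a log2 fold change of 0.62 ± 0.13 (limma adjusted p = 0.00183). The groups did not overlap, but the other Ccnd3 probe sets stood at 0.14 and -0.09, so the probe sets of this gene disagreed.

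None of the 9 probe sets of A-, B- and E-type cyclins, which act in S phase and mitosis, passed in dKO against WT at any age. Cyclin A2 (Ccna2) on 1417910_at read -0.31, -0.16, -0.10 and 0.00 in WT at 6 months, and -0.67 to 0.00 with a median of -0.58 in dKO. Its log2 fold change was -0.31 ± 0.16 (limma adjusted p = 0.219), with overlapping groups. Cyclin B2 (Ccnb2) stood at -0.23 ± 0.12 (limma adjusted p = 0.223), the 1 Ccnb1 probe set at -0.20 ± 0.13, the Ccne1 probe sets at -0.07 and -0.03, and Ccne2 at -0.15 ± 0.15.

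Cyclin G2 (Ccng2), a cyclin linked to cell-cycle arrest, fell on both probe sets at 6 months. On 1416488_at WT read -0.09, -0.02, 0.00 and 0.07, and dKO -0.84 to -0.22 with a median of -0.39. The groups did not overlap, and the log2 fold change was -0.43 ± 0.10 (limma adjusted p = 0.00417). On 1448364_at it was -0.52 ± 0.13 (limma adjusted p = 0.0104). Cyclin G1 (Ccng1), a p53 target, did not pass at any age, with log2 fold changes of 0.11 to 0.24 at 6 months over its 3 probe sets.

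Among the CDKs that drive the cycle, Cdk1, the kinase of mitotic entry, fell at 6 months on its single probe set, 1448314_at. WT read -0.04, 0.00, -0.27 and 0.16, and dKO -0.88 to -0.14 with a median of -0.75. One dKO array lay inside the WT range, and the log2 fold change was -0.62 ± 0.18 (limma adjusted p = 0.023), a call lost without WT replicate 2 or WT replicate 4 of that age.

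Cdk2, which pairs with cyclins E and A, rose on 1 of its 2 probe sets by 0.22 ± 0.06 (limma adjusted p = 0.0224), and the other stood at 0.05 ± 0.08. The call on 1416873_a_at was lost without WT replicate 1, WT replicate 2 or dKO replicate 5 at 6 months. Cdk6, the partner of D-type cyclins, passed on none of its 3 probe sets, at -0.09, -0.04 and 0.03.

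Cdk19, a kinase of the Mediator complex that acts in transcription, had the lowest log2 fold change of the 207 at 6 months. Probe set 1434997_at read 0.19, -0.13, -0.05 and 0.09 in WT and -1.28 to -0.23 with a median of -0.62 in dKO. The groups did not overlap, at -0.73 ± 0.14 (limma adjusted p = 9.69e-04), and the second probe set fell by 0.29 (limma adjusted p = 0.0149).

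Cdk5, a kinase of postmitotic neurons, did not pass on either probe set at 6 months, at -0.15 and 0.27. Its activator Cdk5r2 (p39) fell by 0.48 on 1450466_at (SE 0.11, limma adjusted p = 0.00381), with 1 WT array, at -0.58, inside the dKO range. Cdk5rap2, a centrosomal protein named for binding a Cdk5 activator, fell by 0.51 (limma adjusted p = 0.0107) on 1 of 3 probe sets. Cdk5rap3 on its single probe set read -0.19, -0.22, -0.31 and -0.24 in WT and 0.08 to 0.42 in dKO, and rose by 0.50 ± 0.09 (limma adjusted p = 7.35e-04).

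Of 16 E2F probe sets, 1 passed at 6 months. E2f6, a repressive E2F that works with Polycomb proteins, fell on 1448835_at, from 0.20, 0.05, 0.16 and 0.07 in WT to between -0.81 and -0.08 in dKO, median -0.20. The log2 fold change was -0.44 ± 0.11 (limma adjusted p = 0.00707), while its other probe set stood at 0.10 ± 0.11. E2f1, the best known activator of the S-phase genes, did not pass, at 0.31 ± 0.13, 0.33 ± 0.13 and 0.09 ± 0.12 on its 3 probe sets (limma adjusted p = 0.122, 0.098 and 0.671). E2f2, E2f3, E2f4, E2f5, E2f7 and E2f8 passed on no probe set in dKO against WT.

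The 6 subunits of the MCM helicase did not move together. Mcm5 fell on 2 of its 3 probe sets at 6 months and Mcm6 rose on 2 of 3, while Mcm2, Mcm3, Mcm4 and Mcm7 passed on none. Mcm5 on 1436808_x_at read 0.02, -0.10, -0.22 and -0.15 in WT and -0.57 to -0.28, median -0.34, in dKO. Mcm6 on 1416251_at read -0.16, -0.09, -0.26 and -0.16 in WT and -0.07 to 0.50, median 0.30, in dKO. Neither pair of groups overlapped.

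The log2 fold change was -0.29 ± 0.09 for that Mcm5 probe set (limma adjusted p = 0.0269) and -0.39 ± 0.12 for 1415945_at (limma adjusted p = 0.0362). For Mcm6 it was 0.44 ± 0.09 on 1416251_at (limma adjusted p = 0.00244) and 0.49 ± 0.16 on 1438852_x_at (limma adjusted p = 0.0351), and the third Mcm6 probe set stood at -0.01 ± 0.07. At 6 months the call of 1436808_x_at was lost without WT replicate 1, 2 or 4, that of 1415945_at without WT replicate 2, 3 or 4 or dKO replicate 2, 4 or 5, and that of 1438852_x_at without WT replicate 3 or 4 or dKO replicate 1 or 5. Probe sets whose names end in _x_at can also bind related transcripts.

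Of the genes that load and fire origins, none passed in dKO against WT. At 6 months the log2 fold change of Cdc6, which loads MCM, was 0.00 ± 0.12. Cdc7, the kinase that activates MCM, stood at 0.14 and 0.01, and Cdc45, which joins MCM in the active helicase, at 0.21 and 0.11. The 3 probe sets of Mcm10, another factor of origin firing, lay between -0.18 and 0.14.

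Cdc25a, the phosphatase that activates CDK2 and CDK1, rose at 6 months on 1 of 3 probe sets. On 1417131_at WT read 0.00, -0.13, -0.25 and -0.23, and dKO 0.10 to 0.51 with a median of 0.26. The groups did not overlap, and the log2 fold change was 0.43 ± 0.08 (limma adjusted p = 0.00105). The other Cdc25a probe sets stood at 0.09 ± 0.12 and -0.21 ± 0.08. Cdc25b and Cdc25c, which act at mitotic entry, and Cdc20, the activator of the anaphase-promoting complex, did not pass, at 0.10 to 0.18.

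Cdc25a was also the single gene of the 87 whose dKO effect passed the test between ages. At 3 months 1417131_at read -0.07, 0.17, 0.09 and 0.25 in WT and 0.10, -0.20 and 0.01 in dKO, so the effect there was -0.14 ± 0.10. The effect at 6 months exceeded it by 0.57 ± 0.13 (limma adjusted p = 0.0276), 1 higher call of 207 against a background of 1.11%, with 0.488% higher and 0.627% lower. The call was lost without WT replicates 2, 3 or 4 or dKO replicate 2 at 3 months, and without WT replicates 3 or 4 at 6 months. No probe set passed for 6 months against 6 weeks, beside 0.71% of all probe sets. At an unadjusted limma p under 0.05 there were 18 of the 207 and 5083 of all 38143. None passed for 3 months against 6 weeks, beside 0.0105% of all probe sets. Here 10 of the 207 and 2136 of all 38143 had an unadjusted limma p under 0.05. Without the library labelled dKO replicate 3 at 6 weeks none passed either, beside 0.456% and 0.0105% of all probe sets.

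Cdc23, a subunit of the anaphase-promoting complex, gave -0.64 ± 0.21 on 1433430_s_at (limma adjusted p = 0.0381) and 0.55 ± 0.15 on 1460549_a_at (limma adjusted p = 0.0154). Both calls were lost without WT replicate 2, 3 or 4 at 6 months, and the first also without WT replicate 1 or dKO replicate 3 or 5. Cdc73, a subunit of the Paf1 complex of transcription elongation, gave -0.32 ± 0.08 on 1427971_at (limma adjusted p = 0.0073) and 0.48 ± 0.16 on 1429940_at (limma adjusted p = 0.0472). The call of 1429940_at was lost in 23 of its 35 alternatives, most of them arrays left out, and turned to -0.015 in the mean over probe sets, so no direction is given for either gene.

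Names of the Cdc42 group, which concern the actin cytoskeleton rather than division, supplied 6 of the 31 calls. Cdc42bpa (MRCKα), a kinase activated by Cdc42, read 0.28, 0.10, 0.05 and -0.04 in WT and -0.58 to -0.33 in dKO on 1436380_at. It fell by 0.61 ± 0.08 (limma adjusted p = 2.19e-05), with no overlap, but only on this 1 of its 4 probe sets, of which the highest stood at 0.08. The mean over the 4 was -0.13 and did not pass (limma adjusted p = 0.105). Cdc42bpg, the related kinase MRCKγ, read 0.14, -0.14, 0.01 and -0.03 in WT and 0.29 to 1.09 in dKO and rose by 0.64 ± 0.14 (limma adjusted p = 0.0025).

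The effector genes Cdc42ep3, on both probe sets, Cdc42ep2 and Cdc42se1 fell by 0.46, 0.44, 0.64 and 0.29. The other Cdc42se1 probe set stood at 0.07 and did not pass. At 6 months the Cdc42ep2 call was lost without any 1 of the WT arrays or dKO replicate 3, that of Cdc42se1 without WT replicate 1, 2 or 3 or dKO replicate 3, 4 or 5, and 1 of those of Cdc42ep3 without WT replicate 1 or 4 or dKO replicate 4. Cdc34, a ubiquitin-conjugating enzyme of the SCF ligases, fell by 0.37 ± 0.07 (limma adjusted p = 0.00187). Cdk2ap2, a CDK2-associated protein, fell by 0.24 on 1 of 2 probe sets (limma adjusted p = 0.0189), a call lost without WT replicate 1, 2 or 3.

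**Figure D3:**
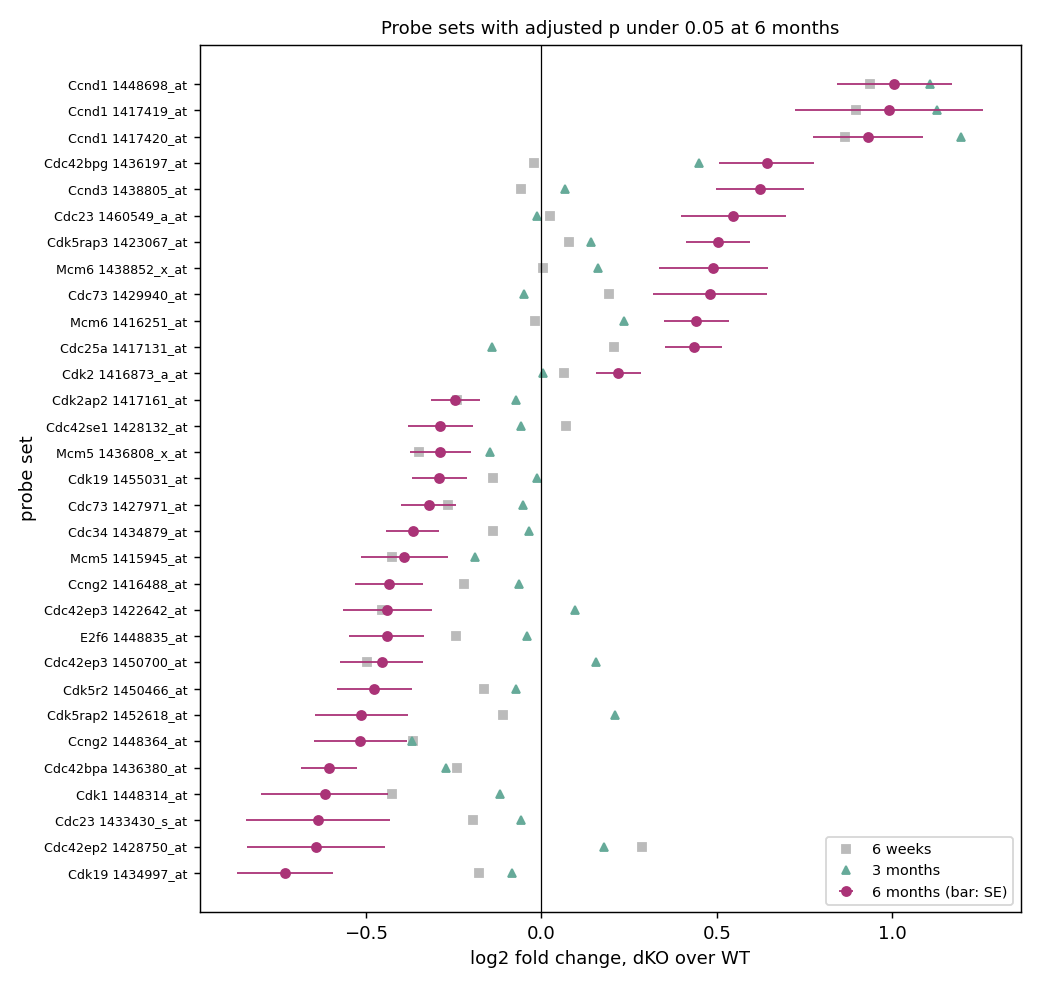
Log2 fold change of dKO over WT (x axis) for the 31 probe sets with adjusted p under 0.05 at 6 months (y axis); circles are 6 months with the SE as a bar, triangles 3 months and squares 6 weeks. The 3 Ccnd1 probe sets are high at each age, from 0.86 to 1.19, whereas Cdk19, Cdc42bpg, Ccnd3 and Cdc25a stand closer to 0 at 6 weeks. None of these probe sets passed the test of the effect at 6 months against that at 6 weeks.

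Cyclins A2, B2 and D2 with their kinases Cdk1 and Cdk6 fell with age in the WT striatum, as did the MCM subunits Mcm2, Mcm5, Mcm6 and Mcm7. From 6 weeks to 6 months 46 of the 207 (22.2%) passed, 9 higher and 37 lower, in 31 genes, beside a background of 15.8%, 6.64% higher and 9.16% lower. Without WT replicate 1 at 6 weeks 2 were higher and 23 lower, and without WT replicate 2 of that age 4 and 23. The count of higher ones was 3 to 5 without WT replicate 3 at 6 weeks or WT replicate 2, 3 or 4 at 6 months. The background without these arrays is not given. The median log2 fold change was -0.09 for the 207 and 0.01 for all probe sets. These WT arrays are the same ones that serve as controls at 6 weeks and 6 months.

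Ccna2 on 1417910_at read 1.12, 1.27 and 0.61 in WT at 6 weeks, 0.16, 0.14, 0.09 and 0.21 at 3 months and -0.31, -0.16, -0.10 and 0.00 at 6 months. It fell by 1.15 ± 0.19 (limma adjusted p = 7.05e-04) and its second probe set by 0.70. Cdk1 read 1.02, 1.51 and 0.58 in WT at 6 weeks and fell by 1.07 ± 0.21 by 6 months (limma adjusted p = 0.00235), without overlap. Ccnb2 read 0.73, 1.13 and 0.57 at 6 weeks against 0.09, -0.03, -0.11 and -0.11 at 6 months, and fell by 0.86 ± 0.15 (limma adjusted p = 7.28e-04).

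Ccnd2 fell with age on 6 of its 7 probe sets, by 0.62 to 1.25. On 1416123_at it read 0.78, 0.87 and 0.54 at 6 weeks and -0.12, -0.77, -0.60 and -0.59 at 6 months. Cdk6, its kinase partner, fell by 0.97 ± 0.13 on 1435338_at (limma adjusted p = 6.39e-05) and by 0.75 ± 0.12 on 1455287_at, and its remaining probe set stood at -0.05. Of the Ccnd2 calls, that of 1416122_at was lost without WT replicate 1 or 2 at 6 weeks, and that of 1434745_at without either of these or WT replicate 3 at 6 months. The second Ccna2 probe set lost its call without the same 3 arrays. Ccnd1 did not pass on any probe set. Ccnd3 rose by 0.40 on 1 of 3 (limma adjusted p = 0.0448), a call lost in 18 of 34 alternatives, among them the removal of any 1 of the WT arrays at 6 weeks.

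Among replication genes, Mcm5 fell with age by 0.74 ± 0.10 (limma adjusted p = 1e-04) and 0.49 on its 2 called probe sets, and Mcm7 on 3 of 4 by 0.39 to 0.42. Mcm2 fell by 0.40 and Mcm6 by 0.38 on 1 probe set each, and Cdc7 by 0.79 ± 0.17 (limma adjusted p = 0.00446). E2f3 and E2f7, an activator and a repressor of the E2F family, each fell by 0.52 on 1 probe set. The 9 probe sets that rose included E2f5 at 0.74 on 1 of 3 and Mcm3 at 0.33 on 1 of 5. In the mean over all probe sets of the gene, E2f3 stood at -0.20 and E2f5 at 0.18, and neither passed.

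Most of these MCM calls were lost when single WT arrays were left out. Those of all 3 Mcm7 probe sets were lost without WT replicate 1 or 2 at 6 weeks or WT replicate 2 or 4 at 6 months, and that of Mcm6 without the same arrays of 6 weeks or WT replicate 3 at 6 months. The Mcm2 call was lost without WT replicate 1 or 3 at 6 weeks or WT replicate 2, 3 or 4 at 6 months, the smaller Mcm5 call without WT replicate 1 or 2 of either age, and that of Mcm3 without WT replicate 1 or 3 at 6 weeks or WT replicate 2 at 6 months. The call of E2f7 was lost without WT replicate 1 at 6 weeks. Those of Mcm5 1436808_x_at, Cdc7, Cdk1, Ccnb2 and both Cdk6 probe sets were kept in every alternative run.

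In the dKO each array of Cdk1, Ccnb2 and Ccna2 on 1417910_at at 6 weeks also stood above each at 6 months, a comparison not tested by itself, while the arrays of the other Ccna2 probe set overlapped. Ccna2 on 1417910_at read 1.05, 0.07 and 1.06 in dKO at 6 weeks, Cdk1 0.92, 0.05 and 0.85, and Ccnb2 0.79, 0.29 and 0.86. Replicate 2 was the lowest of the 3 arrays for each of these genes. The difference between the dKO effects at 6 months and 6 weeks was -0.04 ± 0.26 for Ccna2 and -0.19 ± 0.29 for Cdk1, and neither passed (limma adjusted p = 0.973 and 0.838). Without the library labelled dKO replicate 3 these were 0.13 ± 0.27 and -0.07 ± 0.31 (limma adjusted p = 0.915 and 0.965).

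**Figure D4:**
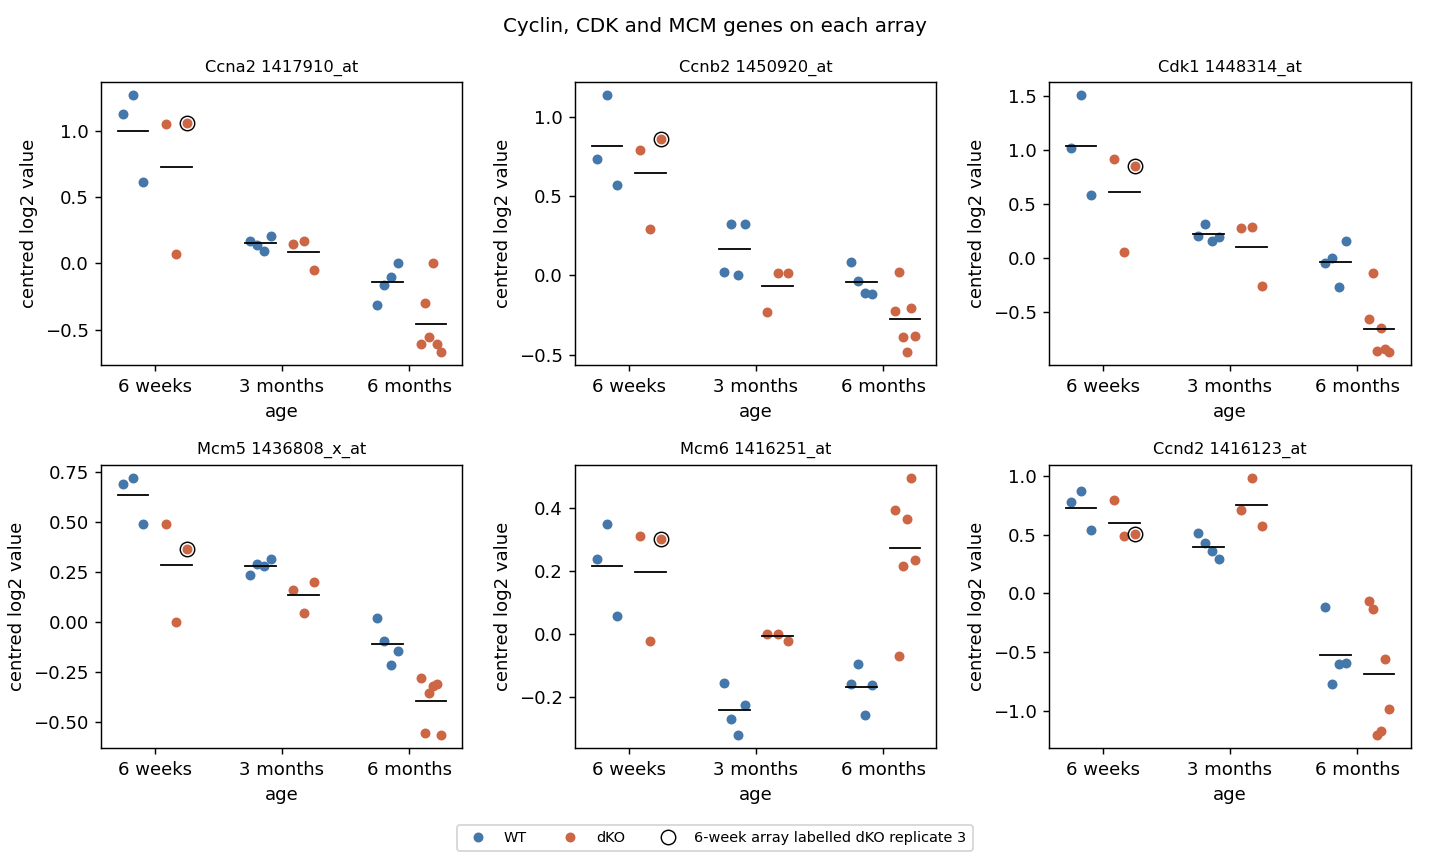
Centred log2 values (y axis) of Ccna2, Ccnb2, Cdk1, Mcm5, Mcm6 and Ccnd2 on each array by age (x axis); WT in blue, dKO in orange, the bar is the group mean and the ring marks the library labelled dKO replicate 3 at 6 weeks. Ccna2, Ccnb2, Cdk1 and Ccnd2 are highest at 6 weeks in WT, and at 6 months Mcm6 in dKO runs from -0.07 to 0.50, above the WT arrays.

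The remaining genes of the pathway were counted in 4 lists. At 6 weeks and 3 months no probe set of the DNA replication, mitosis or RB-family lists passed, and 1 of the CDK inhibitors did, Cdkn2a. These counts at 6 weeks were the same without the library labelled dKO replicate 3. At 6 months 4 of 82 probe sets for DNA replication (40 genes) were higher and 10 lower (17.1% in all), with a median log2 fold change of -0.01. For mitosis and spindle (78 probe sets, 32 genes) 2 were higher and 11 lower (16.7%), median -0.08. Both shares lay near the background of 15.7% over all probe sets. By direction, 4.88% of the replication list were higher and 12.2% lower. For the mitosis list these were 2.56% and 14.1%, beside 7.62% higher and 8.07% lower among all probe sets. The CDK inhibitors (11 probe sets, 8 genes) had 5 higher and none lower, median 0.57, and the RB family with its DP partners (23 probe sets, 10 genes) had 2 higher and none lower, median 0.00.

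Mki67, the Ki-67 marker of cycling cells, read -0.40, 0.00, -0.17 and 0.13 in WT at 6 months and -1.72 to -0.76, median -1.10, in dKO. It fell by 1.05 ± 0.20 (limma adjusted p = 0.00121), with no overlap. Top2a, the topoisomerase of dividing cells, read -0.32, -0.06, 0.09 and 0.00 in WT and -1.52 to -0.65 in dKO on 1454694_a_at and fell by 0.99 ± 0.19 (limma adjusted p = 0.00135). Its dKO arrays too lay wholly below the WT arrays on this probe set. The other Top2a probe sets stood at -0.05 and -0.01 and did not pass, and the mean over the 3 was -0.35, still past the threshold.

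Nuf2, a kinetochore protein, fell by 1.42 ± 0.27, Ube2c, the ubiquitin-conjugating enzyme of the anaphase-promoting complex, by 0.87 ± 0.23, and Cdca8, a partner of Aurora B, by 0.83 ± 0.18 (limma adjusted p = 0.00109, 0.012 and 0.00317). Rrm2, the regulated subunit of ribonucleotide reductase, fell by 0.55 on its lowest probe set and Pola1, the catalytic subunit of DNA polymerase alpha, by 0.52 on 1419397_at. The other Pola1 probe set stood at -0.11 and did not pass (limma adjusted p = 0.622). The Rrm2 call was lost without any one of WT replicates 1, 2 or 4 or dKO replicates 3, 4 or 5, and that of Pola1 without WT replicate 1.

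Pole, the catalytic subunit of DNA polymerase epsilon, went the other way. It read -0.32, -0.17, -0.36 and 0.06 in WT and 0.35 to 1.06, median 0.50, in dKO, and rose by 0.81 ± 0.16 (limma adjusted p = 0.00118).

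Among the CDK inhibitors, Cdkn1a (p21), a p53 target, read -0.67, -0.997, -0.71 and -0.99 in WT and 0.09 to 1.85, median 0.57, in dKO at 6 months on 1424638_at. It rose by 1.62 ± 0.26 (limma adjusted p = 2.05e-04), although at 3 months it stood at -0.48 ± 0.31 (limma adjusted p = 0.927). The difference between those ages, 2.10 ± 0.40, passed (limma adjusted p = 0.0094). Both groups moved between them, the WT mean from 0.26 to -0.84 and the dKO mean from -0.22 to 0.78. At 6 weeks the WT mean was -0.73. Cdkn2b (p15INK4b), the neighbour of Cdkn2a that also blocks CDK4 and CDK6, rose by 1.41 ± 0.14 (limma adjusted p = 4.89e-07). Cdkn2c (p18INK4c) rose on 1416868_at by 0.57 ± 0.10 (limma adjusted p = 7.28e-04), but its other probe set stood at 0.17 ± 0.09 (limma adjusted p = 0.203). Tfdp1, an E2F partner, rose by 0.43 ± 0.10 and Tfdp2, another, on 1 of 4 probe sets by 0.38 ± 0.11; the Tfdp2 call was lost without WT replicate 1 or 3.

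In WT the mitosis list fell with age on 24 of 78 probe sets and rose on 6 (30.8% and 7.69%), and the replication list fell on 17 of 82 and rose on 3 (20.7% and 3.66%), beside 9.16% lower and 6.64% higher among all probe sets. Mki67 fell by 1.44 ± 0.24 (limma adjusted p = 5.62e-04), Top2a by 1.38 ± 0.23 on the same 1 of 3 probe sets and Rrm2 by 1.78 ± 0.20. The difference of the dKO effect between 6 months and 3 months did not pass for Mki67, at -0.71 ± 0.31 (limma adjusted p = 0.313), or for any probe set of the mitosis and replication lists.

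**Figure D5:**
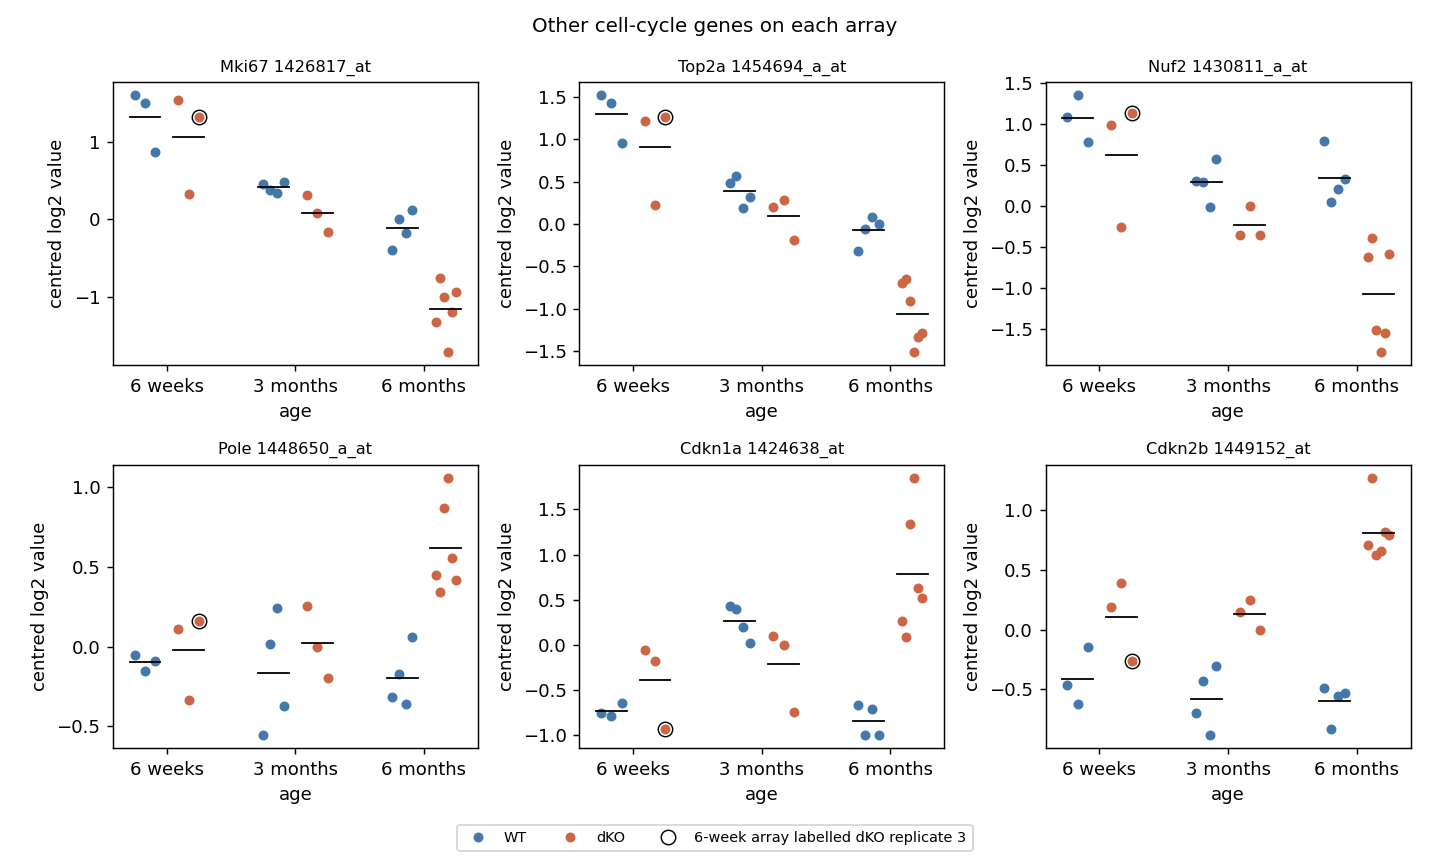
Centred log2 values (y axis) of Mki67, Top2a, Nuf2, Pole, Cdkn1a and Cdkn2b on each array by age (x axis); WT in blue, dKO in orange, the bar is the group mean and the ring marks the library labelled dKO replicate 3 at 6 weeks. At 6 months Mki67 in dKO lies between -1.72 and -0.76, below all WT arrays, and Cdkn1a between 0.09 and 1.85, above them.

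Markers of cell types moved with these groups, and their part in the results above was not tested. At 6 weeks, beside the differences of Cdkn2a and Ccnd1, the astrocyte marker Gfap was higher in dKO on all 3 probe sets, by 1.20 to 1.38 (limma adjusted p = 0.00392 to 0.0272), and these were the 3 calls among the 32 astrocyte probe sets. On 1440142_s_at it read -0.57, -0.57 and -0.48 in WT and 0.998, 0.47 and 0.50 in dKO, so the library labelled dKO replicate 3 lay with the other dKO arrays here, and without it the 3 differences were 1.27 to 1.54 (limma adjusted p = 0.00468 to 0.0239). No other marker list had a call at 6 weeks, where 0.202% of all probe sets passed. By list median, dKO replicate 2 of that age was lowest of its group for subventricular markers (0.02 against 0.19 and 0.25). It was also lowest for ependymal markers (-1.16 against 0.34 and 0.35), but highest for cortical neurons (0.99 against -1.62 and 0.56). For microglia and oligodendrocyte precursors it lay between the others. A link to its low Ccna2, Cdk1 and Ccnb2 was not tested.

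At 6 months 18 of 28 medium spiny neuron probe sets were lower in dKO and none higher, and the list's median per array lay between -0.75 and -0.36 on the dKO arrays, below the WT arrays at 0.00 to 0.21. Of the types that can divide, microglial markers had 3 of 19 probe sets lower, oligodendrocyte precursor markers 1 of 22 higher and 2 lower, and markers of subventricular progenitors and neuroblasts 1 of 36 higher and 1 lower. Among all probe sets 7.62% were higher and 8.07% lower at this age. The share lower was 64.3% for medium spiny neurons and 15.8% for microglia. Oligodendrocyte precursors had 4.55% higher and 9.09% lower, and the subventricular list 2.78% each way. The per-array medians ran from -0.58 to 0.17 in dKO and -0.02 to 0.17 in WT for microglia, -0.06 to 0.05 and -0.02 to 0.05 for oligodendrocyte precursors, and -0.15 to 0.04 and -0.12 to -0.01 for the subventricular list.

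Astrocyte markers had 2 of 32 probe sets higher and 4 lower, cortical neuron markers 3 of 14 higher and 1 lower, and lymphocyte and erythroid markers 2 of 13 lower, while endothelial, ependymal and choroid plexus markers had no call. These shares were 18.8%, 28.6% and 15.4% in either direction, beside 15.7% of all probe sets at 6 months. The choroid plexus median per array ran from -0.61 to 3.72 over all groups. That of cortical neurons ran from -1.95 to -0.13 in WT and -0.93 to 0.19 in dKO at 6 months. In WT at 6 weeks it ran from -0.72 to 0.34. With age in WT, 11 of 36 subventricular probe sets fell and 1 rose, with array medians of 0.09 to 0.17 at 6 weeks and -0.12 to -0.01 at 6 months. Astrocyte markers rose on 9 of 32 probe sets and fell on none, with array medians of -0.17 to -0.15 at 6 weeks and -0.03 to 0.18 at 6 months, and Gfap rose by 0.75 to 1.65. Microglial markers rose on 4 of 19 and fell on none, with medians of -0.08 to -0.02 and -0.02 to 0.17. Oligodendrocyte precursor markers rose on 3 of 22 and fell on 2, Gpr17 by 1.43 ± 0.14 (limma adjusted p = 3.63e-06). Endothelial markers had 2 of 13 higher and 2 lower, lymphocyte and erythroid markers 2 of 13 higher, medium spiny neuron markers 2 of 28 lower and cortical neuron markers 1 of 14 lower, beside 15.8% of all probe sets in either direction. Since values are centred, no marker can be called absent.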

How the data were processed

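Affymetrix arrays were hybridised with cRNA prepared from 6 ug of striatal RNA, per the labels' protocols. The values are log2 signals that the authors deposited after RMA, per the submitters' processing notes; for 87.95% of probe sets at least 1 array reads exactly 0, and array medians run from -0.01 to 0.02, so each probe set appears to be centred on a sample median. The sources used here name no array design, annotation version or genome build, and symbols are those in the deposited table. Of its value columns 2 could not be tied to 1 sample and were not used; the other 21 equalled the series table exactly. No 2 arrays were alike, with a median absolute difference of at least 0.102. Replicates are taken as separate animals because the design text calls them biological.

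All 38143 probe sets with 1 symbol were fitted with limma 3.58.1 in R 4.3.3 with 1 mean for each of 6 groups over 23 arrays, without covariates (17 residual degrees of freedom), and tested two-sided with Benjamini-Hochberg adjustment over all of them at 0.05. Fold changes carry their SE. No filter on signal was used. The fit was tested on simulated data. Genes named are those called in dKO against WT, cyclins, CDKs, E2F, MCM and CDC genes of the core cycle, up to 4 called genes per pathway list, and Cdkn2a, Ezh1 and Ezh2. WT arrays at 6 weeks and 6 months enter both the genotype and the age comparison. The genes, the 4 pathway lists and the 10 marker lists were chosen with earlier results of these data known. Alternatives covered normalization, the variance model, array weights, probe sets per gene, the probe sets tested, Xist as a covariate for sex, a replicate block and leaving out each array.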

Additional observations from a re-analysis of the deposited data

Results flagged for a closer look

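In 54 called or named probe sets, the 162 groups of 4 or 6 arrays (WT at 3 and 6 months and dKO at 6 months) were checked for 1 array standing apart, and 7 had one; chance gives about 1 in 20. At 6 months in WT, replicate 1 stood at 0.23 for Cdc23 1460549_a_at (others -0.42 to -0.37) and at 0.58 for Cdk5rap2 (others 0.23 to 0.26). WT replicate 4 of that age stood at -0.42 for Ccnd3 1438805_at, with the others between 0.00 and 0.08. At 3 months in WT, Cdc42ep3 had replicate 4 at -0.16 on 1422642_at (others 0.15 to 0.21) and replicate 1 at 0.13 on 1450700_at (others -0.08 to -0.06). For Mcm5 1415945_at, WT replicate 1 of that age stood at -0.03, with the others between 0.36 and 0.40. In the dKO at 6 months, replicate 1 stood at -0.10 for Cdk2ap2 1417161_at, with the others between -0.33 and -0.28.

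The dKO effect on Cdc25a 1417131_at differed between 6 and 3 months by 0.57 ± 0.13 (limma adjusted p = 0.0276).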

How the results depend on the processing

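Alternatives for the age change in WT, for the differences of effects and for named probe sets at 6 weeks and 3 months were chosen after seeing the data. At 6 months the counts were 12 higher and 19 lower. They were 7 and 12 with 1 probe set per gene by largest SD, 4 and 10 with the mean per gene, 7 and 10 with only the groups compared and 6 lower with the replicate block. At 3 months, with 2 higher, these gave 0 by largest SD, 1 with the mean and 1 with the block. At 6 weeks, with none, array weights gave 6 higher and 13 lower, the library labelled dKO replicate 3 having the largest weight of all (5.32), and keeping the more variable probe sets (above the median SD) gave 1 higher. For the effect at 6 minus 3 months, the 1 higher call became 0 with the groups compared, the mean or the block, and array weights gave 8 lower. For the effects at 3 and at 6 months minus 6 weeks, with none called, array weights gave 4 higher and 4 lower, and 7 and 8; leaving out 1 array gave 0 for the first and 0 to 1 higher for the second, the 1 without dKO replicate 1 or 2 at 6 months. With age in WT, 9 higher and 37 lower became 3 and 20 by largest SD, 2 and 19 with the mean, 26 and 65 with array weights, 14 higher with quantile normalization and 24 lower with plain _at probe sets. Leaving out 1 array gave 0 to 3 higher and 0 to 1 lower at 6 weeks, 1 to 2 higher at 3 months, 9 to 17 and 13 to 24 at 6 months, 0 to 1 and 0 to 2 for the effect at 6 minus 3 months, and 2 to 12 and 23 to 42 for age in WT, the lowest of these without WT replicate 1 at 6 weeks, where without WT replicate 2 there were 23 lower. The most at 6 weeks came without dKO replicate 1 of that age.

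Sign changes arose where 1 value stood for each gene. The setting by largest SD kept 1 probe set per gene, so its sign changes are values of a probe set other than the one called. In the counts of calls kept, a call was lost too where the value standing for its gene did not pass. By largest SD, Cdc73 (1427971_at) became 0.23, E2f6 0.10, Cdc23 (1460549_a_at) -0.64 and Tfdp2 -0.15 at 6 months, and with age Mcm3 -0.29 and both Cdc42 probe sets 0.089. With the mean, Cdc73 (1429940_at) became -0.015 and Cdc23 -0.086, and with age Mcm3 -0.048 and Mcm9 0.000984. Of 31 calls at 6 months 7 were kept under every alternative, those of Ccnd1 (1417420_at, 1448698_at), Cdk5rap3, Cdc34, Cdk19 (1434997_at), Cdc42bpg and Cdk5rap2, against 0 of 2 at 3 months and 17 of 46 with age. Cdkn2a at 6 weeks lost its call in 26 of its alternatives. Its effect at 6 months minus 6 weeks lost its call with quantile normalization (1.88), the groups compared (2.20) and the replicate block (2.28). Replicate numbers did not pair arrays: 2 of 10 same-numbered pairs correlated above 0.1 (range -0.36 to 0.15). The block left 7 residual degrees of freedom and could not be fitted for age in WT.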
